A study of Apis mellifera ligustica with 12 samples.

Results

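The 3 microRNA (miRNA) genes miR-10, miR-993 and iab-4 sit among the Hox genes of the honeybee, and 1 mature miRNA of each was listed in the data: ame-miR-10-5p, ame-miR-993-3p and ame-miR-iab-4-5p. They were found by name, as every entry beginning ame-miR-10- or ame-miR-993- or containing iab-4 with the honeybee prefix ame-, and are 3 of 1350 listed miRNAs and of 180 known honeybee miRNAs. All 3 passed the minimum of 10 counts summed over the libraries and were tested. A further 9 entries carried the same hairpin names without the prefix (for example miR-10-x and miR-10-y) and are described beside them, since they come from the same hairpins or can share their reads.

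Small RNA was sequenced from brains of Apis mellifera ligustica, the Italian honeybee, in 12 libraries, 3 in each of 4 groups. CK libraries were taken as bees without fluvalinate, a pyrethroid used in hives against Varroa mites, and the D10, D20 and D30 libraries (X1D10, X1D20 and X1D30 in the labels) from bees sampled at days 10, 20 and 30 of the treatment. According to the study's methods each library pooled the brains of returning foragers of a single colony, so a library is a colony sample and not a bee. The study describes its comparison as one of times before and after the treatment, so CK was taken as the sampling before it. Its methods also name a control set of colonies and call the CK samples only untreated, and the labels do not settle this. An effect of fluvalinate and one of sampling date cannot be told apart. The same holds for the set of colonies, if CK came from the control set. These are bulk samples, in which fewer cells of a type and less RNA per cell cannot be told apart either.

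Hox genes encode transcription factors that set the identity of body segments along the head-to-tail axis, and some stay active in the adult nervous system. A miRNA is cut from a hairpin transcript as a duplex of its 5p and 3p arms; as a rule one arm is kept in the silencing complex, where its seed (bases 2 to 8) pairs with target messages. miR-10 is an ancient miRNA that lies inside Hox clusters of most bilaterian animals. miR-993 is an arthropod relative of miR-10 that also lies there, and iab-4 lies in the bithorax region, where in Drosophila it represses Ultrabithorax (Ubx).

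The sequences are shown as the deposited files give them, with DNA letters, 5′ to 3′ and the seed in capitals, because they show which entries are arms or variants of 1 hairpin. The first group holds the 3 honeybee entries.
ame-miR-10-5p: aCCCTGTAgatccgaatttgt
ame-miR-993-3p: gAAGCTCGtctctacaggtatct
ame-miR-iab-4-5p: aCGTATACtgaatgtatcctga
The second group holds the other entries of the miR-10 and miR-993 hairpins with more than a few reads. It ends with ame-miR-100-5p, a relative of miR-10 outside the Hox cluster.
miR-10-x: aCCCTGTAgatccgaatttgtta
miR-10-y: cAAATTCGgttctagagaggttt
miR-993-x: tACCCTGTagatccgggctttt
ame-miR-100-5p: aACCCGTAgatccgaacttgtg
No 2 of the 3 honeybee entries shared a seed, and none shared it with another honeybee miRNA. miR-10-x is ame-miR-10-5p with 2 more bases at its 3′ end and has the same seed, so the authors' assignment of reads decided between the pair. miR-10-y is the 3p arm of the miR-10 hairpin and miR-993-x the 5p arm of the miR-993 hairpin. The 2 hairpins show their kinship in the 5p arms: bases 1 to 14 of ame-miR-10-5p are bases 2 to 15 of miR-993-x, so the seeds are shifted by 1 base. The seed of miR-993-x was also that of 1 honeybee entry outside the name rule, ame-miR-3785-3p. ame-miR-100-5p shared 11 unbroken bases with ame-miR-10-5p, starting at base 6 of both, and had another seed.

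In the RefSeq annotation of assembly Amel_HAv3.1, which the study's methods also give for its genome, the 3 hairpins lie on linkage group 16. The gene of iab-4 spans bases 3476152 to 3476236, that of miR-10 bases 4243330 to 4243429 and that of miR-993 bases 4312514 to 4312602. Ubx spans bases 3674143 to 3820751 and Antennapedia (Antp), the Hox gene of the middle body segments, bases 3881429 to 4037081. The iab-4 hairpin thus lies 197.9 kb from Ubx on the side away from Antp, miR-10 206 kb beyond Antp, and miR-993 69.1 kb further on. The iab-4 hairpin lies within the span of the protein-coding gene LOC102656349, miR-10 within that of LOC107965722, also protein-coding, and miR-993 within that of the long non-coding RNA gene LOC113219315. The table used gives spans only, so exon or intron and strand were not looked up.

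**Figure D1:**
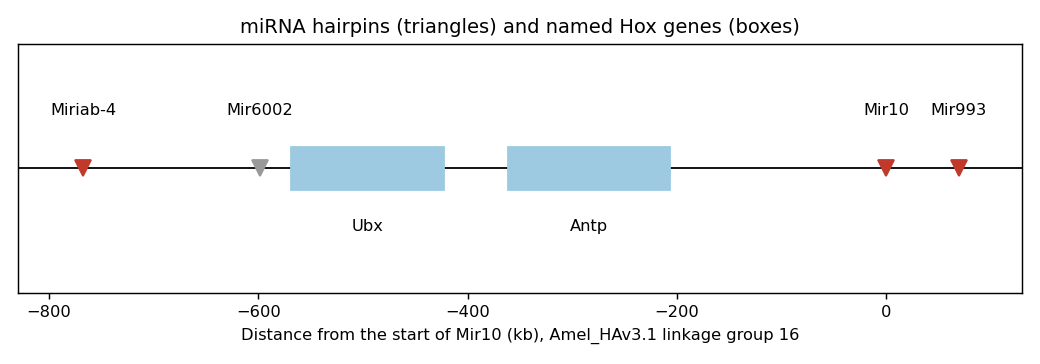
Map of linkage group 16 with distance from the start of the miR-10 hairpin gene in kb on the horizontal axis; bars are annotated gene spans and markers the miRNA hairpin genes. The iab-4 hairpin lies on the far side of Ubx, and miR-10 and miR-993 lie 69.1 kb apart beyond Antp.

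Library totals ran between 8454313 and 15979901 counts, so that 3 counts correspond to 0.173 to 0.326 TPM, the authors' depth-scaled count without length correction. Marker miRNAs were set beside the brain label as values only, with no other tissue to compare. All 5 neuronal miRNAs looked for were listed. Their summed level was 20995 to 27736 TPM in CK, 24554 to 38926 TPM in D10, 24510 to 30646 TPM in D20 and 23925 to 27889 TPM in D30. They were unequal: over the 12 libraries ame-miR-124-3p averaged 18901 TPM and ame-miR-1000-5p 17.6 TPM. Of 4 muscle miRNAs 2 were listed, both counted in the libraries, with summed levels of 3869 to 4637 TPM in CK, 3049 to 3978 TPM in D10, 2981 to 3591 TPM in D20 and 3127 to 5036 TPM in D30. Library D30-3 stood apart, with 220 entries that had counts in no other library against 2 to 22 such entries in the others. Of the entries known from other species, 479 had counts in D30-3, against 180 to 269 in the others. Library D10-2 had the lowest ame-let-7-5p and the highest ame-miR-124-3p of the 12.

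The 3 miRNAs differed widely in abundance. ame-miR-10-5p held 91.7% of their 288669 counts, ame-miR-993-3p 8.28% and ame-miR-iab-4-5p 0.0211%. Among all 1350 entries ame-miR-10-5p ranked 37 by mean TPM, ame-miR-993-3p 87 and ame-miR-iab-4-5p 519. Of all counts in the series, 0.172% were ame-miR-10-5p, with 0.118% to 0.224% in single libraries, and 0.0156% were ame-miR-993-3p.

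ame-miR-10-5p was present at 1082 to 2062 TPM in all 12 libraries, with a mean of 1599 ± 271 TPM (SD). It had 2062, 1517 and 1705 TPM in CK, 1826, 1802 and 1797 TPM in D10, 1510, 1389 and 1252 TPM in D20, and 1082, 1632 and 1616 TPM in D30. The 3 D10 libraries were nearly equal, CK and D30 were spread out, and every D20 library was below every CK and every D10 library. Group means were 1762 ± 277 TPM in CK, 1808 ± 15.5 TPM in D10, 1384 ± 129 TPM in D20 and 1443 ± 313 TPM in D30 (SD, n = 3 each). The order of the means was therefore D10, CK, D30 and D20. Of all 787 miRNAs tested, 7.75% had every D20 library below every CK library and 6.1% had every D20 library below every D10 library. Among the 205 abundant miRNAs, with a mean of at least 10 CPM, these shares were 13.7% and 10.2%. CPM is the count scaled to the total of the tested miRNAs in its library, adjusted by edgeR's TMM scaling factor. The filter of 1 CPM used below left this factor out. Every D30 library was also below every D10 library, as for 3.56% of all miRNAs tested and 4.88% of the abundant ones.

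None of these differences passed the test. With edgeR's quasi-likelihood test the log2 fold change of ame-miR-10-5p against CK was 0.04 (SE 0.18) in D10, -0.27 (SE 0.18) in D20 and -0.27 (SE 0.18) in D30. Against D10 it was -0.31 (SE 0.18) in D20 and -0.32 (SE 0.18) in D30, and D30 against D20 gave -0.01 (SE 0.18). The adjusted p was between 0.438 and 1 in these 6 comparisons and 0.538 for the 4 groups together, and no neighbours in the order of levels differed beyond their spread. In each comparison with D30, the median log2 fold change of all tested miRNAs was itself above 0, at 0.25 against CK, 0.27 against D10 and 0.25 against D20. With a filter of at least 1 CPM in 3 libraries these medians were 0.057, 0.029 and 0.0067. Without D30-3 they were 0.092, 0.013 and 0.122. The values of ame-miR-10-5p leaned on single libraries and on the scaling: without CK-1 the log2 fold change of D20 against CK was -0.08, without D30-1 that of D30 against CK was -0.09, and with upper-quartile scaling D30 against CK was -0.84 and D30 against D10 was -0.86, still with no call. Upper-quartile scaling moved the median over all tested miRNAs as well, to -0.21 for D30 against CK and -0.19 for D30 against D10.

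ame-miR-993-3p was lower in all 9 treated libraries than in all 3 CK libraries. It had 189, 157 and 193 TPM in CK, 127, 118 and 131 TPM in D10, 134, 152 and 135 TPM in D20, and 132, 149 and 115 TPM in D30. The narrowest gap lay between 152 TPM in library D20-2 and 157 TPM in library CK-2, and the D10 libraries were all below the D20 libraries. Group means were 180.0 ± 19.99 TPM in CK, 125 ± 6.77 TPM in D10, 140.1 ± 10.04 TPM in D20 and 132 ± 16.9 TPM in D30 (SD, n = 3 each). CK was thus followed by D20, D30 and D10, and no neighbours in this order passed edgeR's test. Of the 787 tested miRNAs, 5.59% had every D10 library below every CK library, 7.75% every D20 library and 4.45% every D30 library. Among the 205 abundant miRNAs these shares were 12.7% for D10, 13.7% for D20 and 7.32% for D30. Every D20 library was above every D10 library for 3.81% of all miRNAs tested and 6.34% of the abundant ones. All 9 treated libraries were below all 3 CK libraries for 6 miRNAs, or 0.762%, and for 1.95% of the 205 abundant miRNAs.

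Against CK, the log2 fold change of ame-miR-993-3p was -0.52 (SE 0.12) in D10, -0.27 (SE 0.12) in D20 and -0.45 (SE 0.12) in D30. With edgeR's quasi-likelihood test the adjusted p of these was 0.512 in D10, 1 in D20 and 0.516 in D30, so the miRNA was not called, while its unadjusted p was 0.00198 in D10 and 0.00491 in D30. The call depended on the tool. DESeq2 called it in D10 against CK at a log2 fold change of -0.47 (SE 0.09) and an adjusted p of 0.000111, and in D30 against CK at -0.47 (SE 0.09) and an adjusted p of 0.000322. DESeq2 called 3.68% of the 299 miRNAs to which it gave an adjusted p in D10 against CK and 0.581% of 688 in D30 against CK. Between treated groups the log2 fold change was 0.24 (SE 0.12, edgeR adjusted p 0.760) in D20 against D10, 0.07 (SE 0.12, adjusted p 0.848) in D30 against D10 and -0.17 (SE 0.12, adjusted p 0.548) in D30 against D20. The fold in D10 and D30 was under the study's threshold of a log2 fold change beyond 1 by either tool.

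Over the 3 miRNAs edgeR's quasi-likelihood test called 0 in each of the 6 comparisons and in the test of the 4 groups together, as it called 0% of all 787 miRNAs. The study did report differentially expressed miRNAs with edgeR, without naming the test or filter. The 0% also depended on D30-3. Without that library the quasi-likelihood test called 8 of 637 miRNAs in D10 against CK, 6 in D20 against D10 and 4 over the 4 groups. None of the 3 was among them. At an unadjusted p under 0.05 with all 12 libraries, the quasi-likelihood test gave 1 of the 3, ame-miR-993-3p, in D10 against CK, in D30 against CK and over the 4 groups. The same held there for 6.1%, 6.86% and 9.78% of all miRNAs tested. In the other comparisons it gave 0 of the 3, against 4.07% of all miRNAs in D20 against CK, 6.1% in D20 against D10, 11.2% in D30 against D10 and 7.62% in D30 against D20. DESeq2 called ame-miR-993-3p in the same 3 comparisons, and over the 4 groups it called 11.9% of the 227 miRNAs with an adjusted p. It called neither ame-miR-10-5p nor ame-miR-993-3p in the others, where it called 1.79% of miRNAs in D20 against CK, 3.37% in D20 against D10, 1.05% in D30 against D10 and 0% in D30 against D20. DESeq2 gave ame-miR-iab-4-5p an adjusted p only in D30 against CK and D30 against D20, and did not call it there. The classic exact test of edgeR called 0 of the 3 in the 6 pairs.

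**Figure D2:**
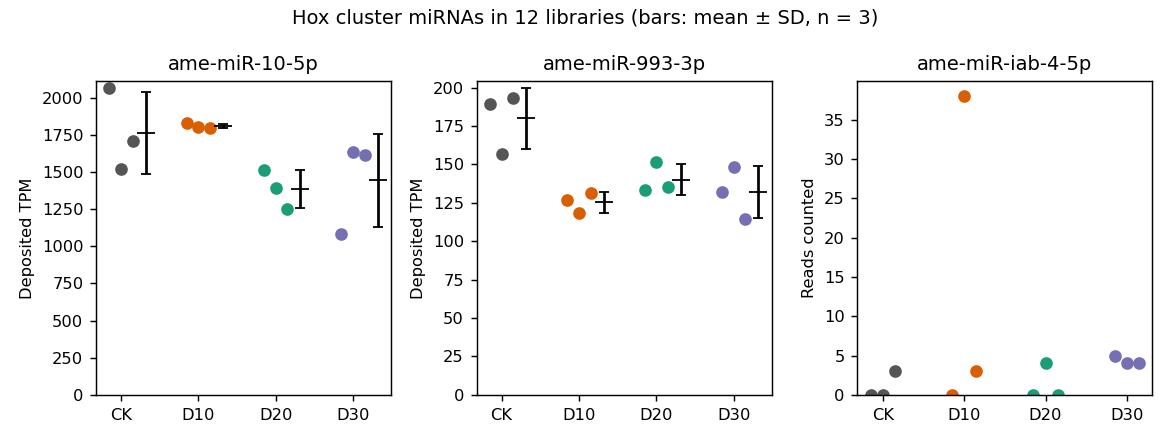
Deposited TPM of ame-miR-10-5p and ame-miR-993-3p, and counts of ame-miR-iab-4-5p, in each library of CK, D10, D20 and D30. Points are libraries and bars the group mean with SD, which are left out for ame-miR-iab-4-5p. The 9 treated libraries of ame-miR-993-3p lie between 115 and 152 TPM, below CK at 157 to 193 TPM.

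**Figure D3:**
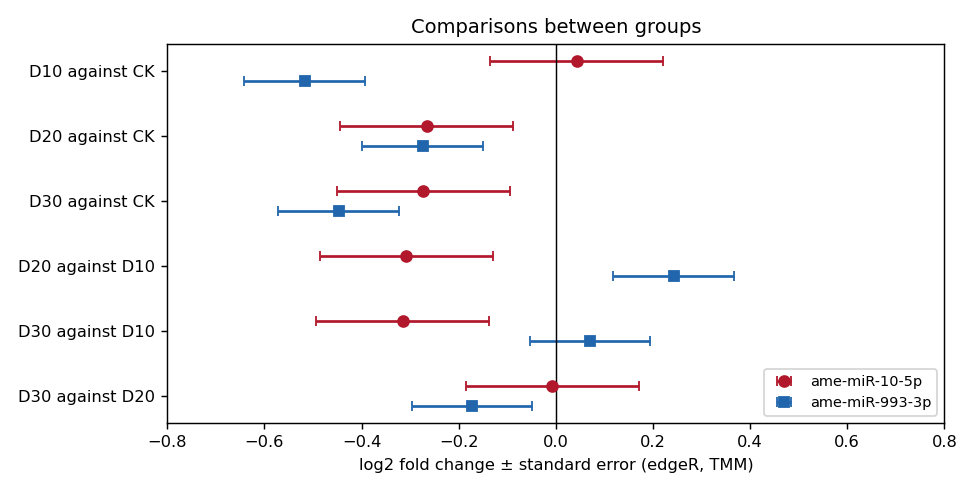
Log2 fold change of ame-miR-10-5p and ame-miR-993-3p in the 6 comparisons by edgeR, with bars of 1 SE. The value for ame-miR-993-3p is -0.52 in D10 against CK and -0.45 in D30 against CK, while no value of ame-miR-10-5p lies beyond -0.32.

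The libraries also fell into a higher and a lower class by the share of high-quality reads in the study's read table. In the higher class, with 1 CK library, the log2 ratio of ame-miR-993-3p against CK was -0.60 in D10, -0.43 in D20 and -0.72 in D30. In the lower class, with 2 CK libraries and no D20 library, it was -0.47 for D10 against CK and -0.32 for D30 against CK. Leaving out each library in turn gave -0.52 to -0.38 for D10 against CK, with an adjusted p of at least 0.261, -0.35 to -0.14 for D20 against CK and -0.52 to -0.38 for D30 against CK. The value of D20 against CK was -0.18 without CK-1, -0.14 without CK-3 and -0.15 without D20-1, and upper-quartile scaling gave -0.92 for D30 against CK. Of the muscle miRNAs, ame-miR-1-3p had a lower mean in each treated group than in CK, but D10 overlapped CK. It had 1680, 1092 and 1633 TPM in D10, 872 to 1229 TPM in D20 and 917 to 1291 TPM in D30, against 1651 to 2138 TPM in CK. The other listed muscle miRNA, ame-miR-133-3p, had 1956 to 2345 TPM in D10, 1881 to 2718 TPM in D20 and 2205 to 3745 TPM in D30, against 2061 to 2500 TPM in CK, so the groups overlapped. Of the neuronal miRNAs, ame-miR-7-5p was below CK in all 9 treated libraries too. It had 1766 to 2217 TPM in D10, 1644 to 2660 TPM in D20 and 1940 to 2458 TPM in D30. CK had 2750 to 3090 TPM. The other neuronal miRNAs did not fall in this way. The edgeR log2 fold change against CK in D10, D20 and D30 was 0.55, 0.44 and 0.25 for ame-miR-124-3p. It was 0.30, 0.44 and 0.56 for ame-miR-210-3p, and 0.61, 0.37 and -0.03 for ame-miR-1000-5p. For ame-miR-137-3p it was -0.07, 0.22 and -0.06. The quasi-likelihood test called none of the neuronal miRNAs. The part of these in the values of ame-miR-993-3p was not tested.

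The ratio of ame-miR-10-5p to ame-miR-993-3p within a library needs no scaling between libraries. The CK libraries had ratios of 10.9, 9.66 and 8.81. It was 14.4, 15.3 and 13.7 in D10, 11.3, 9.16 and 9.26 in D20, and 8.19, 10.99 and 14.1 in D30. The 3 D10 libraries were all above the CK and D20 libraries, and D30 covered nearly the whole range. How often ratios of other miRNA pairs separate in this way was not counted. The mean ratio was 9.79 ± 1.04 for CK, 14.4 ± 0.798 for D10, 9.91 ± 1.21 for D20 and 11.1 ± 2.95 for D30 (SD, n = 3 each). An exact permutation test of the log2 ratio over all 15400 ways to form 4 groups of 3 gave p = 0.0684 (F statistic); the choice of this ratio followed a look at the values. Over the 12 libraries the correlation of the levels of ame-miR-10-5p and ame-miR-993-3p on the log2(CPM + 1) scale was r = 0.19, as a description.

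**Figure D4:**
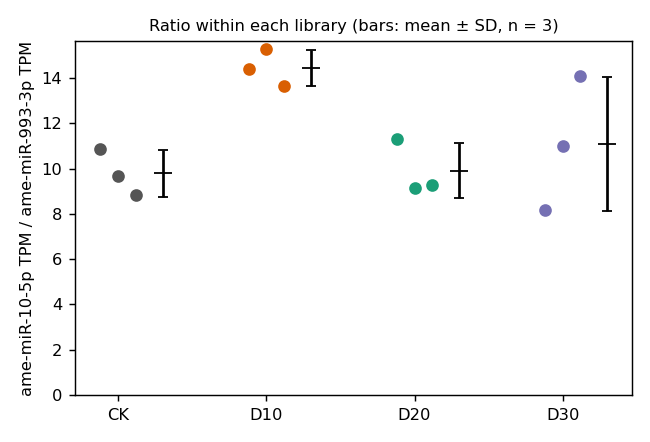
Ratio of ame-miR-10-5p to ame-miR-993-3p counts in each library of CK, D10, D20 and D30, with the group mean and SD. D10 lies at 13.7 to 15.3, against 8.81 to 10.9 in CK.

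ame-miR-iab-4-5p, which comes from the hairpin on the far side of Ubx, was near the limit of detection. It had 0, 0 and 3 counts in CK, 0, 38 and 3 counts in D10, 0, 4 and 0 counts in D20, and 5, 4 and 4 counts in D30. Of its 61 counts, 62.3% were in library D10-2, which had 2.69 TPM against at most 0.321 TPM in any other library. The 3 D30 libraries were all above the CK libraries, as for 5.84% of all miRNAs tested, but by 1 or 2 counts over library CK-3. The pooled level in D10 was 13.2 times that in CK (exact 95% interval 4.22 to 66.8), and without D10-2 it was 1.48 times (0.199 to 11.1). In D30 it was 3.51 times that in CK (0.965 to 19.2). These intervals cover counting error only. The edgeR adjusted p against CK was 0.904 in D10 and 0.719 in D30, with 0.537 over the 4 groups. In the libraries at 0 counts a level of up to 0.192 TPM (D10-1) to 0.326 TPM (CK-1) could have been missed.

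Library D10-2 also held the only counts of the other iab entries. iab-4-x and mir-iab-4-x have 1 identical sequence, which is ame-miR-iab-4-5p with 1 more base at the 3′ end. Both entries had 4 counts there and 0 elsewhere, so these may be the same reads listed under both names. The 3p entries iab-4-y and mir-iab-4-y had 0 counts in all libraries. mir-iab-8-x, named for the miRNA that in Drosophila is made from the opposite strand of the iab-4 hairpin, had 2 counts, both in D10-2.

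The arms of the miR-10 hairpin were unequal, and stayed so in all 12 libraries. Its 3p arm miR-10-y had 78.7, 57.0 and 67.3 TPM in CK, 57.0, 49.5 and 63.6 TPM in D10, 45.7, 51.9 and 48.4 TPM in D20, and 43.4, 66.2 and 48.3 TPM in D30. The 5p arm was 24.7 to 36.4 times as abundant, with a median of 26.7. On the log2 scale the 5p to 3p ratio was 4.70 ± 0.04 for CK, 5.001 ± 0.18 for D10, 4.83 ± 0.19 for D20 and 4.78 ± 0.25 for D30 (SD, n = 3 each). By the exact permutation test over the 4 groups this gave p = 0.258, adjusted p 0.641 over 50 hairpins. The D20 libraries of miR-10-y were all below the CK libraries, as for 7.75% of all miRNAs tested and 13.7% of the abundant ones, with a log2 fold change of -0.39 (SE 0.19) and an edgeR adjusted p of 1. miR-10-y was, by correlation on the log2(CPM + 1) scale, the second most similar of 205 miRNAs to ame-miR-10-5p, after ame-miR-3785-3p (r = 0.70 and 0.72), and the third most similar to ame-miR-993-3p (r = 0.69), as a description over 12 libraries that share depth and group.

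The miR-993 hairpin had the opposite arm bias, with its 3p arm the more abundant in all 12 libraries. Its 5p arm miR-993-x had 25.6, 19.3 and 22.03 TPM in CK, 11.7, 31.8 and 10.6 TPM in D10, 14.6, 14.9 and 18.6 TPM in D20, and 41.3, 16.3 and 12.7 TPM in D30. Libraries D10-2 and D30-1 were the highest, and the 5p arm made up 21.2% (Wilson 95% interval 19.5% to 23.0%) of the hairpin's paired counts in D10-2 and 23.8% (22.2% to 25.5%) in D30-1, with a median of 10.1% over all libraries and 7.44% at the lowest. Those 2 libraries did not stand out for ame-miR-993-3p, at 118 and 132 TPM. miR-993-y, a 3p form shifted by 1 base, had 0 to 6 counts per library and 29 in all. The log2 5p to 3p ratio was -3.01 ± 0.12 for CK, -2.98 ± 0.95 for D10, -3.13 ± 0.25 for D20 and -2.68 ± 0.87 for D30 (SD, n = 3 each). The exact permutation test over the 4 groups gave p = 0.929, adjusted p 0.948. Of the 50 hairpins tested, 10% had an unadjusted p under 0.05 and 0% passed after adjustment. The 5p entry was the higher in 19 of the 50 and the 3p entry in 31.

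The longer form miR-10-x varied in its own way. It had 12.7, 10.5 and 11.8 TPM in CK, 16.3, 15.4 and 12.3 TPM in D10, 7.42, 7.30 and 6.43 TPM in D20, and 6.42, 8.75 and 83.7 TPM in D30. Library D30-3 held 48.1% of its 3022 counts, at 5.14 times the next highest library. There it made up 4.92% (Wilson 95% interval 4.68% to 5.18%) of the counts of the longer and shorter forms together, against 0.489% to 0.884% in the other 11 libraries, while ame-miR-10-5p itself was at 1616 TPM. Some other entries were high in D30-3 too: miR-99-x, singled out after its values were seen, had 4818 counts there against 55 to 101 in the others. By contrast miR-100-x, with 3452 counts there, lay within the 2048 to 4159 counts of the others. The cause of the high values was not tested. Every D20 library had less miR-10-x than every CK library, as for 7.75% of all miRNAs tested and 13.7% of the abundant ones, and less than every D10 library, as for 6.1% and 10.2%. With D30-3 in the fit the log2 fold change of D30 against CK was 1.58 (SE 0.82, edgeR adjusted p 0.516), and without it -0.68 (SE 0.26, adjusted p 0.785). In D20 against D10 it was not called with all libraries in edgeR's quasi-likelihood fit, at a log2 fold change of -0.98 (SE 0.81, adjusted p 0.978). Without D30-3 it was called there at -1.08 (SE 0.23, adjusted p 0.0345), as 1 of 6 calls among 637 miRNAs (0.942%), and without both D10-2 and D30-3 the call was lost at -1.003 (SE 0.24, adjusted p 0.068). The classic exact test of edgeR, run on the D10 and D20 libraries alone and so without D30-3, called it (adjusted p 0.0179), among 1.02% of the 787.

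**Figure D5:**
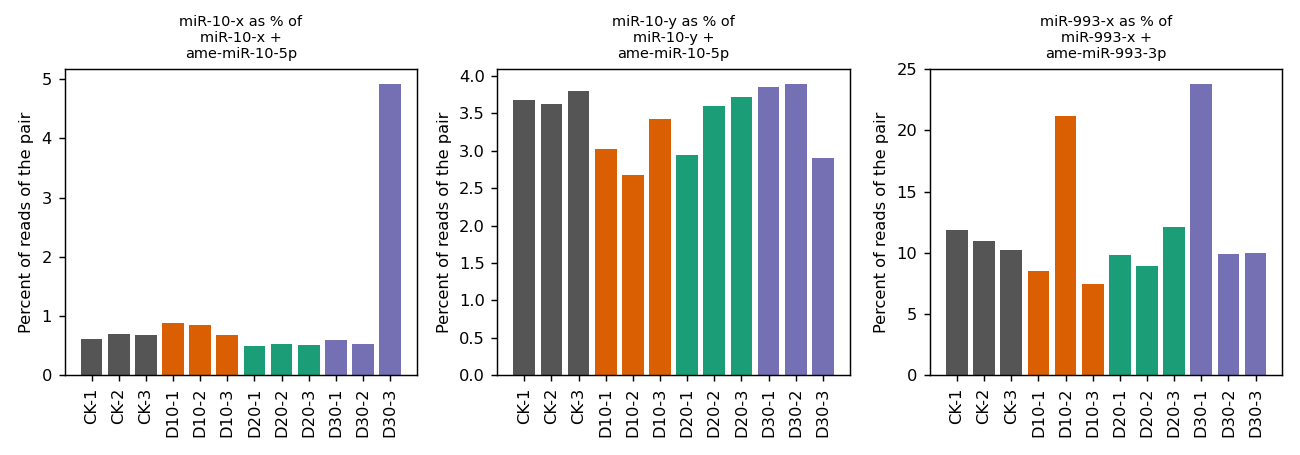
Percent of the counts of a pair held by its minor entry, in each library of CK, D10, D20 and D30. The pairs are miR-10-x with ame-miR-10-5p, miR-10-y with ame-miR-10-5p, and miR-993-x with ame-miR-993-3p. The share of miR-10-x reaches 4.92% in D30-3 against at most 0.884% in the other libraries. That of miR-993-x is highest in D30-1 (23.8%) and D10-2 (21.2%).

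The relatives of miR-10 outside the Hox cluster and their neighbours also passed no test. Of 6 entries looked for, the 5p miRNAs of miR-100, miR-125 and let-7 were listed and tested: these miRNAs share 1 transcript in Drosophila, where let-7 and miR-125 time late developmental transitions. ame-miR-100-5p averaged 8376 ± 562 TPM over the 12 libraries, ame-miR-125-5p 18208 ± 3843 TPM and ame-let-7-5p 1365 ± 272 TPM (SD), so that the first 2 were above ame-miR-10-5p and ame-let-7-5p was below it. None of the 3 passed in any comparison (0 of 3, edgeR quasi-likelihood; lowest adjusted p 0.438, lowest unadjusted p 0.0508). Over the 12 libraries ame-miR-100-5p and ame-miR-10-5p had a correlation of r = -0.07 on the log2(CPM + 1) scale.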

How the data were processed

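The authors trimmed and filtered the reads, discarded reads of other small RNAs, exons, introns and repeats, and placed the remainder on known miRNAs of honeybee or other species or on hairpins they predicted. They deposited for each library raw counts per miRNA and TPM, which are counts scaled by a library total larger than the listed sum (the listed counts are 91.5% to 92.7% of it), with 0 written as 0.01. No deposited count equals 1. A read that fits several entries was placed by the authors, so close variants can trade reads. Entries with 1 identical sequence may hold the same reads.

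From the deposited counts, 787 miRNAs with at least 10 counts were tested in edgeR 4.0.16 (R 4.3.3; quasi-likelihood, TMM, 1 fit of 12 libraries and 4 groups) with Benjamini-Hochberg adjustment over all of them. A call was an adjusted p under 0.05; the study's fold threshold is a log2 fold change beyond 1. Standard errors are from the fit. Alternatives were DESeq2 1.42.0, limma 3.58.1 on log2(TPM + 1) and log2(TPM + 0.1), edgeR's classic exact test, other scalings and filters, the replicate number as a block, and fits without 1 library. No Hox hairpin had both arms under the ame- prefix, so arm ratios of 50 hairpins used entries ending in -x and -y (0.5 added to each count), chosen after seeing the data. Named miRNAs were those found by the name rule, the unprefixed entries of the same hairpins, the related list and the most similar by correlation. The members and lists were chosen with earlier results of these data known. The test was tested on simulated data. Groups come from the sample titles, which number separate libraries, and no pair of replicates had counts within sampling noise. Python 3.11.15, numpy 2.4.6, scipy 1.17.1, pandas 2.3.3 and matplotlib 3.10.9 were used. Hairpin and genome sequences were not used here.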

Additional observations from a re-analysis of the deposited data

How the results depend on the processing

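DESeq2 was the alternative that called ame-miR-993-3p, at log2 fold changes of -0.47 in D10 against CK (adjusted p 0.000111) and -0.47 in D30 against CK (adjusted p 0.000322), and at an adjusted p of 1.26e-05 over the 4 groups, where it called 1 of the 2 miRNAs to which it gave an adjusted p. It also called 11 miRNAs of all tested in D10 against CK, 7 in D20 against CK, 4 in D30 against CK, 12 in D20 against D10, 3 in D30 against D10, 0 in D30 against D20 and 27 over the 4 groups, where the quasi-likelihood test called 0; the classic exact test called 8, 12, 2, 8, 0 and 1 in the 6 pairs. The cause was not tested. Across its 27 alternatives ame-miR-993-3p ranged from -0.54 to -0.38 in D10 against CK and from -0.92 to -0.38 in D30 against CK. Within the higher class of read quality it was -0.43 in D20 against CK and -0.72 in D30 against CK, and -0.12 in D30 against D10. In that class CK-1 was the only CK library and D30-3 the only D30 library. The small value of 0.07 in D30 against D10 changed sign to -0.38 with upper-quartile scaling, -0.0105 with a filter of 1 CPM, -0.00977 with the classic exact test and -0.00296 without libraries D10-2 and D30-3 (chosen after seeing the data), and leaving out each library gave -0.0142 to 0.0476. For ame-miR-10-5p, D10 against CK was -0.0296 with read quality as a term and -0.20 within the higher class, where D20 against CK was -0.58. D30 against D20 was 0.0653 with library totals only, 0.15 with read quality as a term, 0.0195 with near-identical entries summed and 0.0397 and 0.0398 with limma at pseudocounts of 1 and 0.1, and -0.12 to 0.10 when each library was left out. All treated against CK was -0.22 to 0.00141 when each library was left out, the last without CK-1. For ame-miR-iab-4-5p, D20 against CK was -0.15 with the replicate block, -0.48 with read quality as a term and -3.11 to 3.56 when each library was left out; D30 against D10 was -2.49 to 0.96 when each library was left out and 1.04 without D10-2 and D30-3. These fits rest on 61 counts. Leaving out any 1 library left 0 of the 3 miRNAs called in every comparison.

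The replicate numbers of the libraries do not name a colony or a day. Over 18 pairs of same-numbered libraries the deviations from the group means correlated at r = -0.36 to 0.38, with 5 over 0.1, and 4 of 12 libraries correlated best with their own number. With the replicate block ame-miR-993-3p was -0.52 (adjusted p 0.607) in D10 against CK and -0.45 (adjusted p 0.332) in D30 against CK; the block changed no call of the 3 miRNAs. The ratio of the miRNAs had p = 0.153 in the permutation within blocks. The lower class of read quality has no D20 library.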

Other observations

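The predicted entry m0219-5p, named by its number without the files' class prefix, lies outside the name rule and was singled out by its sequence after the data were seen: its bases from 4 on match the first 18 bases of ame-miR-iab-4-5p. It had 0, 4 and 3 counts in CK, 0, 0 and 2 counts in D10, 2, 6 and 2 counts in D20, and 2, 0 and 2 counts in D30, 23 in all. It had 0 counts in D10-2, the library with 38 of the 61 counts of ame-miR-iab-4-5p. Another annotated hairpin gene of the interval, Mir6002, lies 29.0 kb from Ubx and was not analysed here.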
